A study of Mus musculus with 32 samples.

Results

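The regions described here were open in resident type 1 conventional dendritic cells (cDC1), were also open in their migratory counterparts (migDC1), and had almost no peaks in either type 2 subset. Peaks of the 32 deposited lists, 1 per library, were merged into 88757 autosomal consensus regions, and 834 of these (0.94%) were members. A region spans 100 bp or more where the peaks of 3 or more lists coincide. It counts as called in a library whose peak covers 50% or more of it, or lies 50% or more inside it. Members had to be called in at least 5 of 6 cDC1 and at least 3 of 4 migDC1 libraries, and in at most 1 of 6 type 2 resident (cDC2) and at most 1 of 6 floxed migDC2 libraries.

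Omni-ATAC-seq, which maps accessible chromatin by transposase insertion, was run on dendritic cells sorted from skin-draining lymph nodes of mice, to ask how IFN-γ receptor signalling relates to their chromatin. The floxed cohort was homozygous for the floxed IFNgr1 allele in all 28 libraries (genotype IFNgr1flfl), and 14 of these also carried CD11cCRE (Cre-positive, Ifngr1 KO) while 14 were Cre-negative (Ifngr1 WT). It held 6 cDC1, 4 migDC1, 6 cDC2, 6 migDC2 and 6 DN migDC libraries, with equal numbers of both genotypes in each subset. DN migDC are a migratory subset whose source name carries CD11b and CD103 with no sign for either. A second cohort gave 4 migDC2 libraries from WT (2) and germline IFNgr1-/- (2) mice. The CD11c promoter drives Cre in dendritic cells and in some other CD11c-expressing cells. The labels do not say that libraries of a group came from separate animals, so every spread and p-value measures the variation between these libraries, which may be technical.

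cDC1 are the dendritic cells specialised in taking up dying cells and presenting their antigens to CD8 T cells. They depend on the transcription factors IRF8 and BATF3 and carry the chemokine receptor XCR1 and the lectin CLEC9A, whereas cDC2 depend on IRF4 and carry CD11b. In the skin both types mature, raise CCR7 and travel through lymph to the draining node, where they are found beside cells that were resident there all along. Migratory cDC1 of skin carry CD103, and resident cDC1 carry CD8a.

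Few members lay at promoters, and those that did included the promoter of Xcr1, the chemokine receptor gene of cDC1. RefSeq promoter windows hold 250 bases before and 50 bases after a gene's start. The members touched 19 such windows, 9 of them of protein-coding genes: Xcr1, Clnk, Cd36, Notch4, Bmp6, Mfsd4a, Clec2h, Chrm3 and Tiam1. The 250 bases before the start are given 5′ to 3′ on the gene's strand for 5 of these genes, from RefSeq on GRCm38.p6 (the mm10 coordinate system). Xcr1 (chr9:123862030-123862279, minus strand) encodes the receptor for XCL1, and its whole window lay inside a member. Clnk (chr5:38876694-38876943, minus) encodes an adaptor of immune receptor signalling. Cd36 (chr5:17835897-17836146, minus) encodes a scavenger receptor, and Notch4 (chr17:34564045-34564294, plus) a receptor of the Notch family. Bmp6 (chr13:38345466-38345715, plus), a TGF-β family ligand, was chosen after its values were seen because its member was called in every DN migDC library. Capitals mark matches to the motifs named after the sequences.
Xcr1: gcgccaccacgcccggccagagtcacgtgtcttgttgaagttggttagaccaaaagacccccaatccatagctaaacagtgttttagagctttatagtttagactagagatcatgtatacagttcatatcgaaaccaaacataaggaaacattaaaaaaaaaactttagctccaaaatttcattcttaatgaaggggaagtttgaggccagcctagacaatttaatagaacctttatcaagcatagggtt
Clnk: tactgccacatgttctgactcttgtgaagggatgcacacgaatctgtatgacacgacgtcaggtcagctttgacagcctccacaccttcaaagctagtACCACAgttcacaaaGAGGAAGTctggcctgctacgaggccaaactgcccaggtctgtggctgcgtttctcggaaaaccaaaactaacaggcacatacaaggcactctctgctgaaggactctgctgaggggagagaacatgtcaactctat
Cd36: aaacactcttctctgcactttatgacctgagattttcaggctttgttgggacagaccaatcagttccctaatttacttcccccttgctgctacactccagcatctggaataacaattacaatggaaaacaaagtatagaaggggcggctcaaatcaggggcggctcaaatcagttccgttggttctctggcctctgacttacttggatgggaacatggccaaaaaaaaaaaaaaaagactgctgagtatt
Notch4: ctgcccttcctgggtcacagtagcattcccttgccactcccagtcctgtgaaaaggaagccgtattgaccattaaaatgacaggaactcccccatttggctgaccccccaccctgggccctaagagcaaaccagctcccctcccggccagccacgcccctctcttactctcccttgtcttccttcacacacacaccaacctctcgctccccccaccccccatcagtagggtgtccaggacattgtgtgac
Bmp6: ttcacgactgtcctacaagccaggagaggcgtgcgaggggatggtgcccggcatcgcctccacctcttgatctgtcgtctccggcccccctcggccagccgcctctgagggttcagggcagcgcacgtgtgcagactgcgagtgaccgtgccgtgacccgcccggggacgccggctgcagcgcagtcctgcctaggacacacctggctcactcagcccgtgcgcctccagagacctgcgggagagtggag

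8 motifs were searched on both strands: TGANTCA (AP-1 and BATF), TGTGGT (RUNX), GAGGAAGT (PU.1), the interferon-stimulated response element, the ETS-IRF composite element, the NF-κB site and both AP-1-IRF composite elements, which contain the AP-1 motif. Of the 5 printed windows only Clnk held a match, with TGTGGT on the opposite strand beginning 152 bases before the start and GAGGAAGT 137 bases before it. Over the 19 windows, TGANTCA was in 3 (15.8%, against 6.75% of all 32851 windows), TGTGGT in 3 (15.8% against 14%) and GAGGAAGT in 1 (5.26% against 2.44%). The other 5 motifs were in none of the 19. A match describes letters and is not evidence of binding.

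The Xcr1 member (chr9:123861728-123862357) was called in 6 of 6 cDC1, 4 of 4 migDC1 and in no library of any other subset. Its signal percentile ran from 42.6 to 90.7 over the cDC1 lists with a median of 56.8. The percentile is the share of the same list's peaks, itself included, with a deposited signal no higher than its own. In the migDC1 lists the Xcr1 member's percentile was 23.8 and 39.8 (Cre-negative 1 and 2) and 38.5 and 36 (Cre-positive 1 and 2). Percentiles place a peak within its own list. Lists differ in length from 32649 to 74975 peaks, so percentiles from different lists are set side by side only as a description. The Clnk member was called in 5 of 6 cDC1, 4 of 4 migDC1 and also in 5 of 6 DN migDC libraries. The Cd36 member was called in 5 of 6 cDC1 and 3 of 4 migDC1 and in no DN migDC library, and the Notch4 member in 6 of 6 cDC1, 3 of 4 migDC1 and 1 of 6 DN migDC.

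The members' calls in the libraries that chose them are a description. In cDC1, 833, 693 and 830 of the 834 had a peak in Cre-negative libraries 1 to 3, and 834, 778 and 816 in Cre-positive libraries 1 to 3. In migDC1, the Cre-negative libraries called 524 and 828 and the Cre-positive libraries 821 and 798. The low value belonged to the migDC1 list with the fewest peaks (44991), which accounted for 310 members lacking a call. In cDC2 the Cre-negative libraries called 2, 45 and 0 and the Cre-positive libraries 3, 0 and 50. In floxed migDC2 the Cre-negative libraries called 17, 11 and 129 and the Cre-positive libraries 12, 1 and 12, and the list with 129 was the longest of that subset (74330 peaks). A site without a peak may lie just under the authors' threshold in that library.

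**Figure D1:**
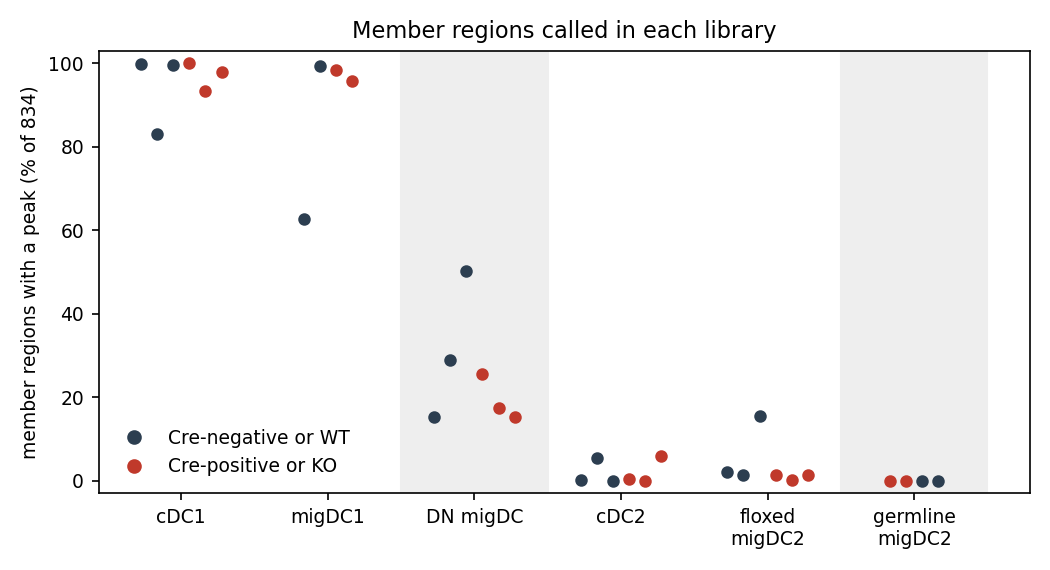
Share of the 834 members with a peak in each library (vertical axis, percent), 1 point per library, by sorted subset and coloured by genotype; the subsets on a grey ground were not used to choose the members. The 6 DN migDC libraries run from 15.2% to 50.2%, and all 4 germline migDC2 libraries lie at 0.

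Many members lay at the edges of the rule. 354 were called in 6 of 6 cDC1 and 4 of 4 migDC1, 260 in 6 and 3, 115 in 5 and 4, and 105 in 5 and 3. No call in cDC2 or floxed migDC2 was found for 594. Just inside each threshold, with the other 3 groups met, were 220 regions called in 5 cDC1, 365 in 3 migDC1, 100 in 1 cDC2 and 182 in 1 floxed migDC2 library. Just outside were 132 called in 4 cDC1, 353 in 2 migDC1, 82 in 2 cDC2 and 156 in 2 floxed migDC2 libraries. Requiring every cDC1 and migDC1 library and no type 2 library left 251 members.

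Members were a minority of the regions open in resident cDC1 but not resident cDC2. There were 8920 regions called in at least 5 of 6 cDC1 and at most 1 of 6 cDC2. In migDC1, 5603 of these (62.8%) were called in at most 1 of 4 libraries, and 2726 (30.6%) in at least 3. Sample titles come in a plain numbered and a lettered style, and what the styles stand for is not given. All cDC1 and cDC2 libraries had plain titles and all migDC1 libraries lettered ones. Whether a region was kept or lost in migDC1 therefore cannot be told apart from title style. Kept and lost name calls in separately sorted subsets, not a change followed within the same cells. Of the 2726, 1429 were also called in at least 5 of 6 floxed migDC2, 463 in 2 to 4, and the 834 members in at most 1. When the floxed lists were shortened to their strongest 38455 peaks, the length of the shortest of them, 3017 of 4674 such regions (64.5%) were called in at most 1 migDC1 library and 656 (14%) met the whole rule.

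**Figure D2:**
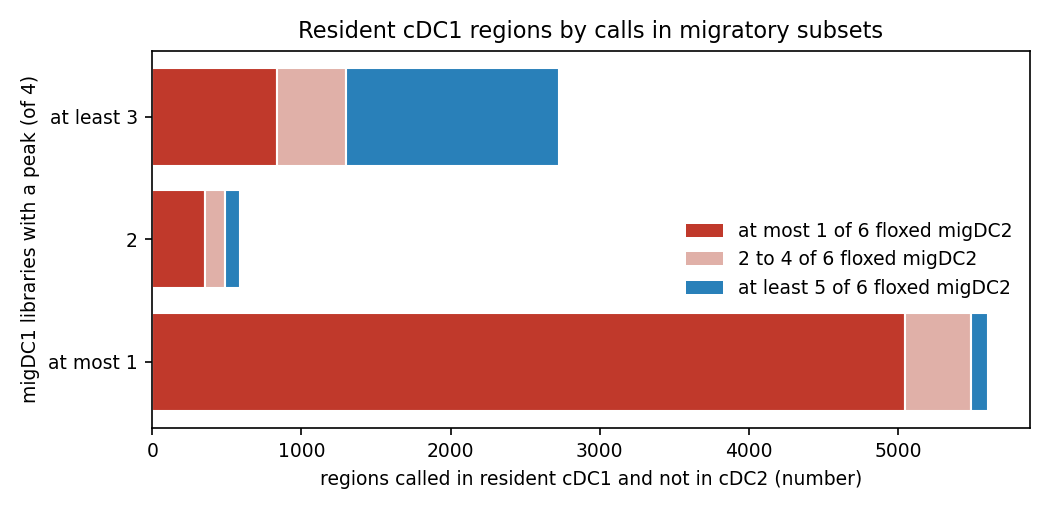
Number of regions called in at least 5 of 6 cDC1 and at most 1 of 6 cDC2 (horizontal axis), by the number of migDC1 libraries calling them (vertical axis) and, by colour, the number of floxed migDC2 libraries. The members are the first segment of the top bar, 834 of 8920, and the long lower segment holds the 5048 regions called in at most 1 migDC1 and at most 1 floxed migDC2 library.

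Which regions counted as members depended strongly on list length. At equal list length the number of members was 656, but 177 regions were shared, 21.2% of the 834 and 27% of the 656. Of the 834, 370 were then called in too few cDC1 libraries and 556 in too few migDC1 libraries. Of the 479 regions that entered, 441 had been called in 2 or more floxed migDC2 libraries with full lists. Members were mid-ranked peaks in cDC1, with a median of 48.1 over members of each member's median percentile (range 6.09 to 91.8). In the migDC1 lists that median was 27.5 (0.941 to 86.4). List by list, the members' median migDC1 percentile was 21.6 to 32.8, while that of all called regions was 52.1 to 52.5. The peaks at Xcr1, Clnk, Etv6, Ppt1 and Tbc1d4 were among the 177 that met the rule both ways, and those at Cd36, Notch4, Kit and Il12b were not. At equal list length other regions met the rule at Kit (2) and Il12b (1), while Cd36 and Notch4 held 0.

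Genes of the cDC1 surface and antigen-handling lists held a larger share of members than regions at large, while the transcription factor list held 1. Regions were assigned to the protein-coding gene whose body holds them or whose nearest end lies within 50000 bp. At 25 cDC1 surface and uptake genes, 11 of 251 regions (4.38%) were members, and at 32 cross-presentation and signature genes 15 of 343 (4.37%), beside 0.94% of all regions. At 18 transcription factor genes of cDC1 there was 1 of 440 (0.227%), in the ETS repressor gene Etv6. Since the rule asks for regions open in cDC1 and not cDC2, in which these lists are rich, the shares were also taken among such resident cDC1 regions. They were 19.6% of 56 and 14.4% of 104 for the first 2 lists and 3.12% of 32 for transcription factors, beside 9.29% of the 7813 such regions with a gene. At equal list length the 3 lists held 10 (3.98%), 8 (2.33%) and 7 (1.59%) of the members chosen then, beside 0.718% of all regions with a gene. Of the 7, Etv6 and Irf8 held 3 each. These lists were drawn up with earlier results of these data known, and the shares carry no test. None of 248 regions at 24 cDC2 genes was a member.

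Among surface and uptake genes, Cadm1, which encodes an adhesion molecule of cDC1 that binds CRTAM on T cells, held the most members, 4 of its 14 regions open in resident cDC1 but not cDC2. All 4 lay in the gene body, at chr9:47581203-47581845, chr9:47703517-47704295, chr9:47726947-47727563 and chr9:47754748-47755565. The last was called in 6 of 6 DN migDC and stood high in migDC1, with percentiles of 85.4 and 83.5 (Cre-negative) and 86.5 and 85.3 (Cre-positive). In the DN migDC lists it was at 35.8, 47.9 and 56.5 (Cre-negative 1 to 3) and 40.4, 28.1 and 43.4 (Cre-positive 1 to 3). The first 3 were called in 0, 0 and 1 DN migDC libraries, so neighbouring members of 1 gene differed from none to all of the DN migDC libraries.

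Gpr33, an orphan G protein-coupled receptor gene, held 2 members. Its distal member (chr12:52029851-52030509) was called in 6 of 6 cDC1 and 4 of 4 migDC1, at migDC1 percentiles of 46.8, 66, 60.9 and 60.5, and in 2 DN migDC libraries. The other lay in the gene body and was called in 3 of 4 migDC1 and no DN migDC. Kit, the receptor for stem cell factor, held 1 member of 5 resident cDC1 regions, and Tlr12, a sensor of parasite profilin, 1 of 3. The Tlr12 member was called in 5 of 6 cDC1 and 3 of 4 migDC1, at the edge of both thresholds.

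Among antigen-handling and signature genes, Wdfy4, which cDC1 require to cross-present cell-associated antigen, had 33 resident cDC1 regions and kept 3 as members, while 29 were called in 2 or fewer migDC1 libraries. The strongest of the 3, at chr14:33070797-33072167, had percentiles of 46 and 69.3 in the Cre-negative and 65.8 and 60.7 in the Cre-positive migDC1 lists. A further member inside the Wdfy4 body was assigned to the nested gene Lrrc18 (chr14:32994692-32996829) and is named after its values were seen. It was the widest member at 2138 bp, was called in every cDC1 and migDC1 library and in none of the others, and stood at 62, 76.7, 75.8 and 73.8 in migDC1. Ppt1, a lysosomal thioesterase, held the member with the highest cDC1 rank of the lists' genes (median 88.1, range 68.9 to 90), 23911 bp from the gene at chr4:122810767-122812166.

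The other genes of that list held 1 or 2 members each. Dkk3, a secreted Dickkopf family protein, had 1 member called in 5 of 6 DN migDC and 1 called in none. Laptm4b, a lysosomal membrane protein, had 2 distal members called in 2 DN migDC libraries each. Il12b, the shared p40 subunit of IL-12 and IL-23, had 1 of its 3 resident cDC1 regions kept, 43246 bp from the gene, and Ccl5, a chemokine, had 1 of 1. Fnbp1, a membrane-curving protein, kept 1 of 11, while 5 others were called in 3 or more migDC1 and in 2 or more floxed migDC2 libraries. Gcsam, Plpp1 and Tbc1d4 had 1 each. Over the 27 members of the cDC1 lists, 21 were called in 6 of 6 cDC1, 19 in 4 of 4 migDC1, 9 in no DN migDC and 3 in 5 or 6.

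**Figure D3:**
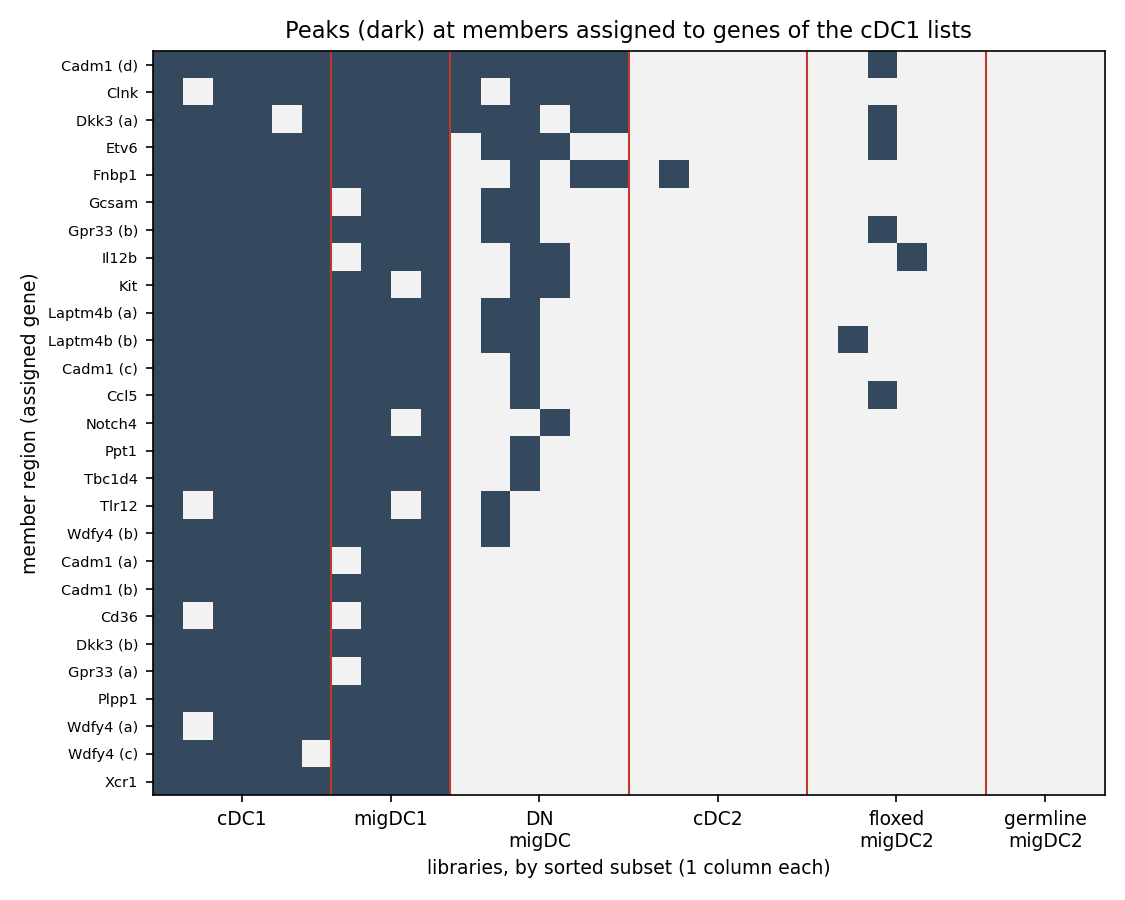
Calls at the 27 members assigned to genes of the 3 cDC1 lists (rows; letters tell apart members of 1 gene by position) in the 32 libraries (columns, by subset; dark marks a peak). The calls in cDC1 and migDC1 and their lack in cDC2 and floxed migDC2 follow from the rule; the DN migDC columns, which it did not use, run from all dark at 1 Cadm1 member to none at 9 members including Xcr1, and the germline migDC2 columns hold no peak.

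Several defining cDC1 genes held no member under the rule, which for Irf8 and Cd8a depended on the settings. Irf8, the lineage's master regulator, had 33 regions, of which 6 were open in resident cDC1 but not cDC2; 4 of those were called in 3 or more migDC1 and in 2 or more floxed migDC2 libraries, and 2 were called in 2 or fewer migDC1. Irf8 held 3 members at equal list length, 2 with peaks of signal 400 or more, 2 under a looser rule, and 1, 2 and 1 without floxed migDC2 Cre-negative 1, Cre-negative 2 and Cre-positive 3. Batf3, Id2 and Tlr3 had no resident cDC1 region of this kind among 16, 11 and 6 regions. Cd8a, the marker of resident cDC1, had 4, and all 4 were called in 2 or fewer migDC1, though 1 became a member when either of the migDC1 Cre-negative libraries was left out. Clec9a, the receptor for dead cells, had 1, which was also called in 2 or fewer migDC1. Itgae, which encodes CD103, had 1, which was called in 3 or more migDC1 and in 2 or more floxed migDC2. Of the 3 at Flt3, the growth factor receptor of dendritic cells, and the 2 at Zfp366, 1 each was of that kind and the rest were called in 2 or fewer migDC1.

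Of the genes with 3 or more members, Cadm1 and Wdfy4 were on the cDC1 lists and the others were not. The 726 members with a gene fell at 642 genes, 574 with 1 member, 55 with 2 and 11 with 3. Cdk14, a kinase that acts with cyclin Y in Wnt signalling, had 5 of 9 resident cDC1 regions, called in 0, 0, 3, 2 and 4 DN migDC libraries. Its member at chr5:5372688-5373723 stood at 73.8 and 77.7 (Cre-negative) and 83.3 and 81.7 (Cre-positive) in migDC1. Camk1d, a calcium-dependent kinase, had 3 of 16, and its distal member (chr2:5729926-5730907) was called in 6 of 6 DN migDC and stood at 84.9, 86.6, 86.2 and 88.3 in migDC1. P3h2, a collagen prolyl hydroxylase, Col25a1, a transmembrane collagen, and Osbpl3, a lipid-binding protein, had 3 each. So did Arhgap15, Arhgap32, Lrba, a BEACH-domain protein of vesicle traffic like Wdfy4, the sorting nexin Snx13, Ankrd6 and Lrrc1. Long genes hold more regions, and these counts are not scaled for length. The counts also depended on list length. At equal list length Col25a1, Arhgap32, Lrba, Arhgap15 and Snx13 held 0 members, and P3h2, Lrrc1 and Wdfy4 held 1 each. Cdk14, Camk1d, Osbpl3 and Ankrd6 then held 2 each and Cadm1 4.

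Lists for other programmes and cell types held 0 to 2 members each. Of 529 regions at DC maturation and migration genes 1 was a member (0.189%), 9307 bp from Cd200, an inhibitory surface glycoprotein. Of 250 at IFN-γ pathway genes 1 was (0.4%), in Ptpn2, a phosphatase that dampens JAK and STAT signalling. B cell genes held 2 of 62 (3.23%), in Ebf1 and Pax5, T cell genes 1 of 74 (1.35%), in Cd247, and monocyte and macrophage genes 1 of 71 (1.41%), in Adgre1. These 3 shares lay above the 0.94% of all regions, on 1 or 2 members each. Langerhans, NK and ILC, plasmacytoid, neutrophil, stromal and ubiquitously active genes held none of 149, 44, 100, 13, 47 and 56. This order depended on list length. At equal list length the B cell, T cell and monocyte and macrophage lists held 0 members. The Langerhans, NK and ILC, and stromal lists then held 2 (1.34%), 1 (2.27%) and 1 (2.13%). IFN-γ pathway genes held 3 (1.2%) and maturation and migration genes 2 (0.378%), beside 0.718% of all regions with a gene.

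DN migDC were not used by the rule, and their libraries called from 15.2% to 50.2% of the members. The Cre-negative libraries called 127 (15.2%), 240 (28.8%) and 419 (50.2%), and the Cre-positive libraries 213 (25.5%), 144 (17.3%) and 127 (15.2%). The mean was 25.4% ± 13.4 (SD, n = 6), beside 64.1% ± 5.25 of all regions. The genotypes overlapped, at 31.4% ± 17.7 (SD, n = 3) in Cre-negative and 19.3% ± 5.46 (SD, n = 3) in Cre-positive libraries. By title style, the 2 plain libraries called 15.2% and 25.5%, and the 4 lettered ones 27.9% ± 16.1 (SD, n = 4). Without Cre-negative library 3, the mean was 20.4%.

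Single members ranged from no DN migDC library to all 6. None was called for 301 members (36.1%) and 1 for 196 (23.5%), so 497 (59.6%) were called in at most 1. Of all regions 26.2% were called in at most 1, and of the 17439 regions with at most 1 call in cDC2 and in floxed migDC2, 76.3%. At the other end, 60 members (7.19%) were called in at least 5. Over all regions 54.9% were called in at least 5 DN migDC libraries, and over those 17439 regions 2.18% were. Leaving floxed migDC2 Cre-negative library 3 out of the rule raised the 60 to 96. Of 374 regions of the type 2 counterpart, called in at least 5 of 6 cDC2 and floxed migDC2 libraries and in at most 1 library each of cDC1 and migDC1, 164 (43.9%) were called in at least 5 DN migDC. Of the 5048 resident cDC1 regions called in at most 1 migDC1 and at most 1 floxed migDC2, 31 (0.614%) were.

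**Figure D4:**
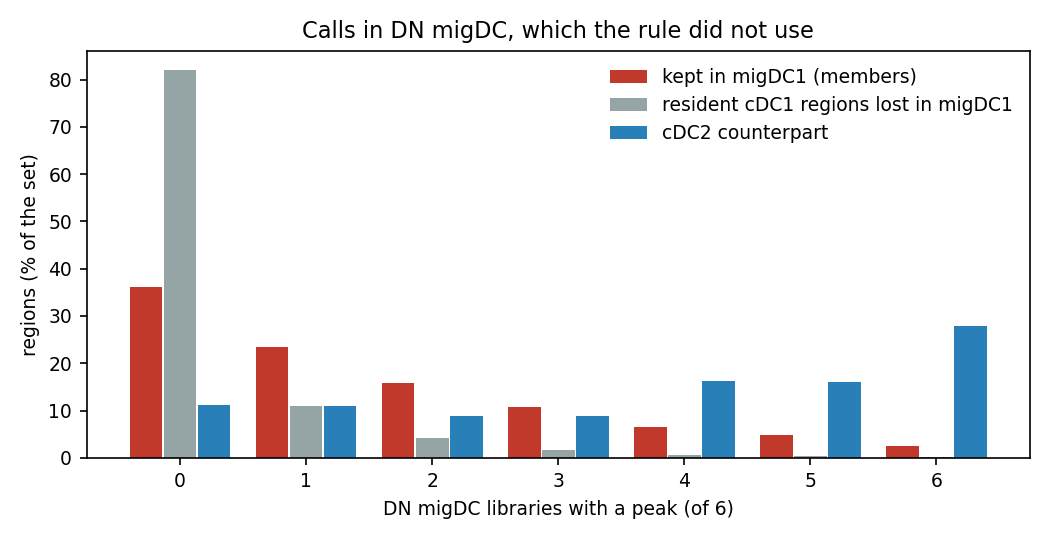
Share of each set of regions (vertical axis, percent) by the number of the 6 DN migDC libraries with a peak (horizontal axis), for the 834 members, the 5048 resident cDC1 regions lost in migDC1 and the 374 regions of the cDC2 counterpart. At 0 libraries stand 36.1% of members, 82% of lost regions and 11.2% of the counterpart.

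In every DN migDC library the member share lay above that of the lost regions (1.88% to 10.9%) and below that of the counterpart (46% to 79.1%). The 3 sets were each chosen by calls in other libraries of the same cohort, and the order is given without a test. The DN migDC library with the most member calls, Cre-negative 3, held most of those of the other 5. It held 109 of the 127 called by Cre-negative library 1 (85.8%, and 26% of its own) and 117 of the 127 called by Cre-positive library 3 (92.1%, and 27.9% of its own). It also shared 98 of the 129 members called by floxed migDC2 Cre-negative library 3 (76%), which are 23.4% of its own 419. When called, members were weak DN migDC peaks, with median percentiles of 10.9 to 17.5 in the 6 lists. At the equal list length of 38455 peaks, 0.48% to 2.04% of the 834 were called in a DN migDC library, while the share also fell to 49.3% to 73% in cDC1 and 37.2% to 42.9% in migDC1. Of the 656 regions that met the rule at that length, 12.5% to 24.8% were called, with a mean of 20.4% ± 4.57 (SD, n = 6).

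Members called in more DN migDC libraries had higher-ranked migDC1 peaks. The median migDC1 percentile was 23.2 for the 301 members with no DN migDC call, 27.5 for the 328 with 1 or 2, 34.7 for the 145 with 3 or 4 and 44.8 for the 60 with 5 or 6. The share called in 4 of 4 migDC1 went from 47.2% to 90% over the same classes, and the share with 1 floxed migDC2 call from 9.3% to 41.7%. Median cDC1 percentiles spanned less, from 44.8 to 53.4. These values share libraries and peak threshold and are a description over regions.

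Regions of the lists for other cells were called in DN migDC too, in shares that differed between libraries. The plasmacytoid list was called at 63%, 74% and 91% in Cre-negative libraries 1 to 3 and 75%, 69% and 67% in Cre-positive libraries 1 to 3. It was highest in Cre-negative library 3, as were the members, the NK and ILC list (79.5%), the neutrophil list (84.6%), the monocyte and macrophage list (67.6%) and the stromal list (72.3%). That library was also highest for each of the 3 cDC1 lists and for the cDC2 (61.3%), maturation and migration (79%) and IFN-γ (77.2%) lists. The same held for ubiquitously active genes (78.6%) and for all regions (71.5%). The B cell list, at 74.2%, 41.9% and 64.5% and at 75.8%, 69.4% and 59.7%, and the T cell list, at 58.1% to 78.4%, were highest in Cre-positive library 1, the longest list (74975 peaks). The part of other cells and of list length in the members' calls was not tested. Regions of the maturation and migration list were called at 69% to 79% in DN migDC, 53.1% to 70.7% in migDC1 and 34% to 46.9% in cDC1.

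The only test between subsets in libraries that the rule did not use set the 6 DN migDC against the 4 germline migDC2 libraries. It was Fisher's exact test per region, two-sided, with Benjamini-Hochberg adjustment over 24711 regions. The rule limited calls in floxed migDC2, the same sorted subset as the germline libraries, so for members this side was not free. In it 5486 regions (22.2%) were called, all more often open in DN migDC. No germline library called a member, so the 205 members tested are those called in at least 3 DN migDC libraries, and their count is a description. Of them 20 passed, which are the members called in 6 of 6 DN migDC against 0 of 4 germline libraries. For members the test adds nothing to that count. These 20 included the fourth Cadm1 member, the distal Camk1d member, the Bmp6 promoter and members at Itgb1, the integrin β1 gene, and Traf3ip3. With both groups' lists cut to 32649 peaks, the shortest germline list, no region was called at an adjusted p under 0.05, 1524 of 7169 having an unadjusted p under 0.05. Subset, cohort and list length cannot be told apart here. Every DN migDC library was floxed, every germline library was migDC2, and the germline lists are short. All 834 members were uncalled in all 4 germline libraries, as were 54.1% of all regions and 99.5% of the 17439 with at most 1 call in cDC2 and in floxed migDC2.

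No member differed past the threshold between Cre-positive and Cre-negative libraries. An exact conditional test of calls in 14 Cre-positive against 14 Cre-negative libraries, two-sided and stratified by subset, found 0 of 60232 regions (0%) at a Benjamini-Hochberg adjusted p under 0.05, with 151 at an unadjusted p under 0.05. All 834 members were tested, none had an unadjusted p under 0.05, and the smallest exact p was 0.05, at chr10:8055263-8055661, called in 5 of 14 Cre-positive and 10 of 14 Cre-negative libraries. Members are called in most cDC1 and migDC1 libraries and few others, which leaves few calls free to differ by genotype. With so few free calls and adjustment over 60232 regions, no member could have passed the threshold. The members' result therefore does not bear on whether genotype affects them. Changes in openness short of a lost or gained peak were not measured.

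Members lay mainly inside genes and away from their ends. Gene ends, within 1000 bp of either end, held 46 members (5.52%), gene bodies 465 (55.8%), the flanks within 50000 bp 215 (25.8%), and 108 (12.9%) had no gene so near. Over all regions the shares were 17.2%, 46.5%, 26.9% and 9.43%. The 5048 lost regions had nearly the same distribution as members, at 5.03%, 55.1%, 27% and 12.9%. Members had a median width of 551 bp (205 to 2138), beside 393 bp for lost regions and 570 bp for all. Every autosome held members, from 0.636% of the regions of chromosome 7 to 1.18% of those of chromosome 9.

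**Figure D5:**
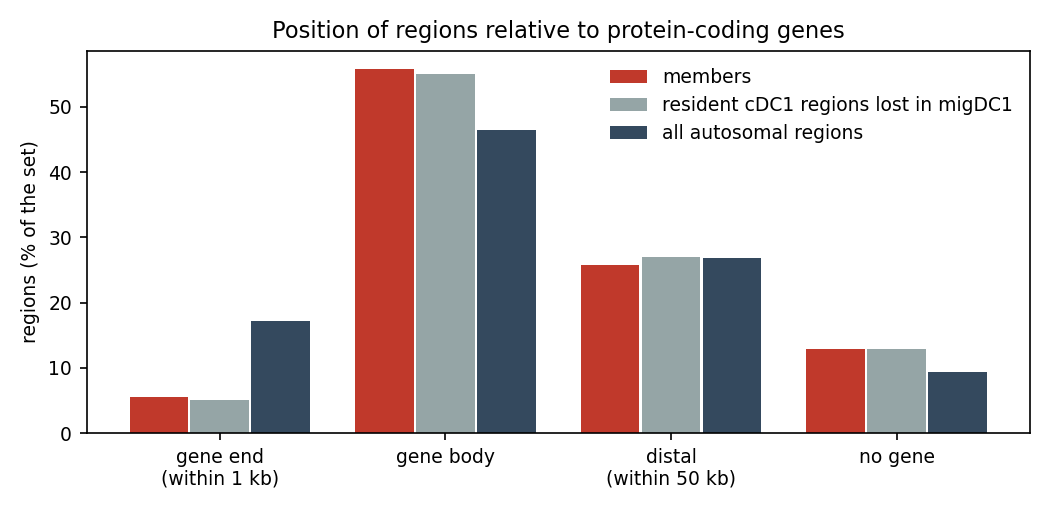
Share of members, of resident cDC1 regions lost in migDC1 and of all autosomal regions (vertical axis, percent) at gene ends, in gene bodies, in the flanks and away from genes (horizontal axis). Members and lost regions are alike in position, with 5.52% and 5.03% at gene ends against 17.2% of all regions.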

How the data were processed

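Omni-ATAC-seq peaks of 32 sorted dendritic cell libraries were analysed as deposited. The authors' files hold, per peak, a signal value and a −log10 p; reads were aligned to mm10 and processed with Bowtie2, deepTools and Genrich, per the submitters' processing notes, which as used here give no versions, and no transposase offset or threshold. Each list is 1 library, not a pool, and starts at a signal of 200. Lists hold no counts, so depth is unknown and no interval is given; they held 32649 to 74975 peaks. The number of columns from other samples was 0.

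Consensus regions, calls and tests were computed in Python 3.11.15 with NumPy 2.4.6. The exact tests took regions that 3 or more of their libraries called and 3 or more did not, which were tested on simulated data. Signal ranked peaks within a list, with −log10 p as deposited breaking ties. Genes and promoters came from RefSeq on GRCm38.p6. The gene table gives no strand. 1 list symbol (of the T cell list) matched no gene.

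Members, rules and lists were chosen with earlier results of these data known. Named were the 25 genes with most members (ties by cDC1 percentile, then symbol), cDC1 list genes with a member, up to 4 genes of each other list, and 12 cDC1 genes in any case. Alternatives covered overlap, lists per region, signal, list length, rule thresholds, strata, title style, chromosome X and each library left out.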

Additional observations from a re-analysis of the deposited data

Results flagged for a closer look

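2 libraries stood far from the others of their subset in the share of members they called. Both were used to choose the members. The rule lets a member lack 1 migDC1 call and have 1 floxed migDC2 call. These shares are therefore a description, with no rate expected by chance. The migDC1 library Cre-negative 1 called 62.8% of the 834 members, while the other 3 migDC1 libraries called 95.7% to 99.3%. Its list was also the shortest of migDC1, at 44991 peaks against 57674 to 60351. The floxed migDC2 library Cre-negative 3 called 15.5%, while the other 5 called 0.12% to 2.04%, and its list was the longest of its subset, at 74330 peaks against 54657 to 63436. The part of list length in either value was not tested at the level of the library.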

How the results depend on the processing

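The number of members was 834 and moved to 507 with peaks of signal 400 or more, to 251 under the strict rule and to 1276 under the loose rule (at least 4 of 6 cDC1 and 3 of 4 migDC1, at most 2 of 6 in each type 2 subset). It was 656 at the equal list length of 38455 peaks, of which 177 were shared, and 807 to 856 under other overlaps and numbers of lists per region. Members called in at least 5 DN migDC, 60 at first, became 20 under the strict and 151 under the loose rule. All lists were also cut to 32649 peaks, the length of the shortest germline list, and the members chosen again. Germline migDC2 calls at the members chosen then were 2.01% ± 0.319 (SD, n = 4) in place of 0. Shortening lists only removes peaks, so none of the 834 could gain a call. The DN migDC against germline migDC2 calls went from 5486, 20 of them members, to 0 and 0 with lists of 32649 peaks; the cause was not tested. Leaving out 1 library, the rule asking for at most 1 missing library in cDC1 and in migDC1, gave 834 to 1168 members, the highest without migDC1 Cre-negative replicate 1. With each floxed library left out in turn, DN migDC included, the DN migDC means were 20.4% to 29.2%. Members lacking a call in at most 1 of the DN migDC libraries then in use numbered 60 to 96. DN migDC against germline migDC2 gave 5530 to 8194 calls and 20 to 30 members when each of its libraries was left out in turn. Of 57 named genes, the number of members changed at 38 with signal 400 or more, at 38 at equal list length, at 42 under the strict rule, at 10 under the loose rule and at up to 14 when a library was left out (migDC1 Cre-negative replicate 1). The genotype contrast called 0 regions under every alternative run. Depth is unknown, so a missing peak cannot be told from a site under the threshold. No paired analysis was possible because the labels give no replicate numbers that pair libraries across groups.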
